A study of Mus musculus with 5 samples.

Results

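The regions described here are ChIP-seq peaks that were called in mouse fibroblasts overexpressing E2F3A and again in those overexpressing E2F3B, at positions where cells overexpressing E2F1 had no peak. They were chosen by their overlap: an E2F3A peak was kept where it shared at least 1 bp with an E2F3B peak, an E2F3B peak where it shared at least 1 bp with an E2F3A peak, and in both cases only where the peak itself touched no E2F1 peak. This left 188 of 1998 E2F3A peaks and 188 of 4704 E2F3B peaks, 376 of the 10489 peaks in the 3 lists. They are called E2F3 peaks without E2F1 below. Their presence in both E2F3 lists and their absence from the E2F1 list are the choice itself and are no result.

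E2F transcription factors bind DNA as dimers with a DP protein and control genes for DNA synthesis and entry into S phase. Their activity is held back by the retinoblastoma protein RB, which cyclin-dependent kinases inactivate as a cell commits to divide. E2F1 and E2F3 are both classed as activating E2Fs and share a closely related DNA-binding domain. The E2f3 gene has separate promoters for its isoforms, so that E2F3A and E2F3B differ in their N-terminal part while the DNA-binding, dimerization and RB-binding parts are the same. In fibroblasts, E2F3A is known to rise as cells enter the cycle, and E2F3B is known to be present in resting cells as well. Positions called for both E2F3 isoforms and not for E2F1 are described here as differences between peak lists, which need not be differences in binding.

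The cells were mouse embryonic fibroblasts of mixed FVB/NT, 129S1/Svlmj and C57BL/6NT background, taken while proliferating without synchronization. The groups used here stably overexpressed E2F1, E2F3A or E2F3B, with 1 library each. Chromatin of E2F1 cells was precipitated with an anti-E2F1 antibody, and that of E2F3A and E2F3B cells with the same anti-E2F3 antibody. Libraries titled 1KO_MEF (genotype 1-/-) and 3KO_MEF (genotype 3-/-), precipitated with the anti-E2F1 and the anti-E2F3 antibody, were not analysed here. The protein overexpressed and the antibody changed together between the E2F1 list and the E2F3 lists, so the effects of each cannot be told apart. Endogenous E2F3, which the shared antibody would also precipitate, and background of that antibody were not separated from the overexpressed isoforms.

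With 1 library per protein no difference could be tested, and the values below describe these 3 lists. Intervals around shares are 95% Wilson intervals, intervals around medians are 95% order-statistic intervals, and both cover counting error over peaks only. The lists hold positions and no read counts or scores, which leaves the depth unknown. A position outside the E2F1 list had no called peak there and may still have been bound. The E2F1 peak names are numbered in order of position, and 16 numbers up to 3803 have no peak among the 3787 used here. What stood under those numbers was not analysed here. Of the regions described below, 7 lay in a stretch between neighbouring E2F1 peaks where a number was skipped, and the 3 of them that are named are pointed out.

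Almost every E2F3A peak in this set had exactly 1 E2F3B partner. The peaks formed 187 overlapping pairs and, when overlapping members were joined, 189 regions that together covered 87.2 kb. In 185 regions there was 1 peak of each isoform, and in 1 region 2 E2F3A peaks lay under a single E2F3B peak. The remaining 3 regions held 1 E2F3A peak or 1 E2F3B peak alone (1 and 2 regions), because the overlapping peak of the other isoform did touch an E2F1 peak. The regions ranged from 233 to 1253 bp, with a median of 442 bp and quartiles of 365 and 517 bp.

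The 2 peaks of each pair overlap by the rule, with or without E2F1. Their widths therefore limit in advance how far apart the centres can lie. The centres of the E2F3A and E2F3B peaks were a median of 52 bp apart (interval 44.5 to 63) with quartiles of 25.5 and 98.8 bp, and the overlap had a median of 277 bp. In 649 pairs where both peaks also overlapped E2F1, the median offset was 55.5 bp (51.5 to 61.5) and the median overlap 332 bp. Offsets in bp were thus similar with and without E2F1, though the wider peaks of pairs with E2F1 allow larger offsets. The lower overlap went with narrower peaks. Relative to the narrower peak of the pair, the overlap covered a median of 97.1% without E2F1 (lower quartile 83.5%) and 100% with it (90.8%). No side was favoured, since the E2F3B centre lay at the higher coordinate in 92 pairs and at the lower coordinate in 95.

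**Figure D1:**
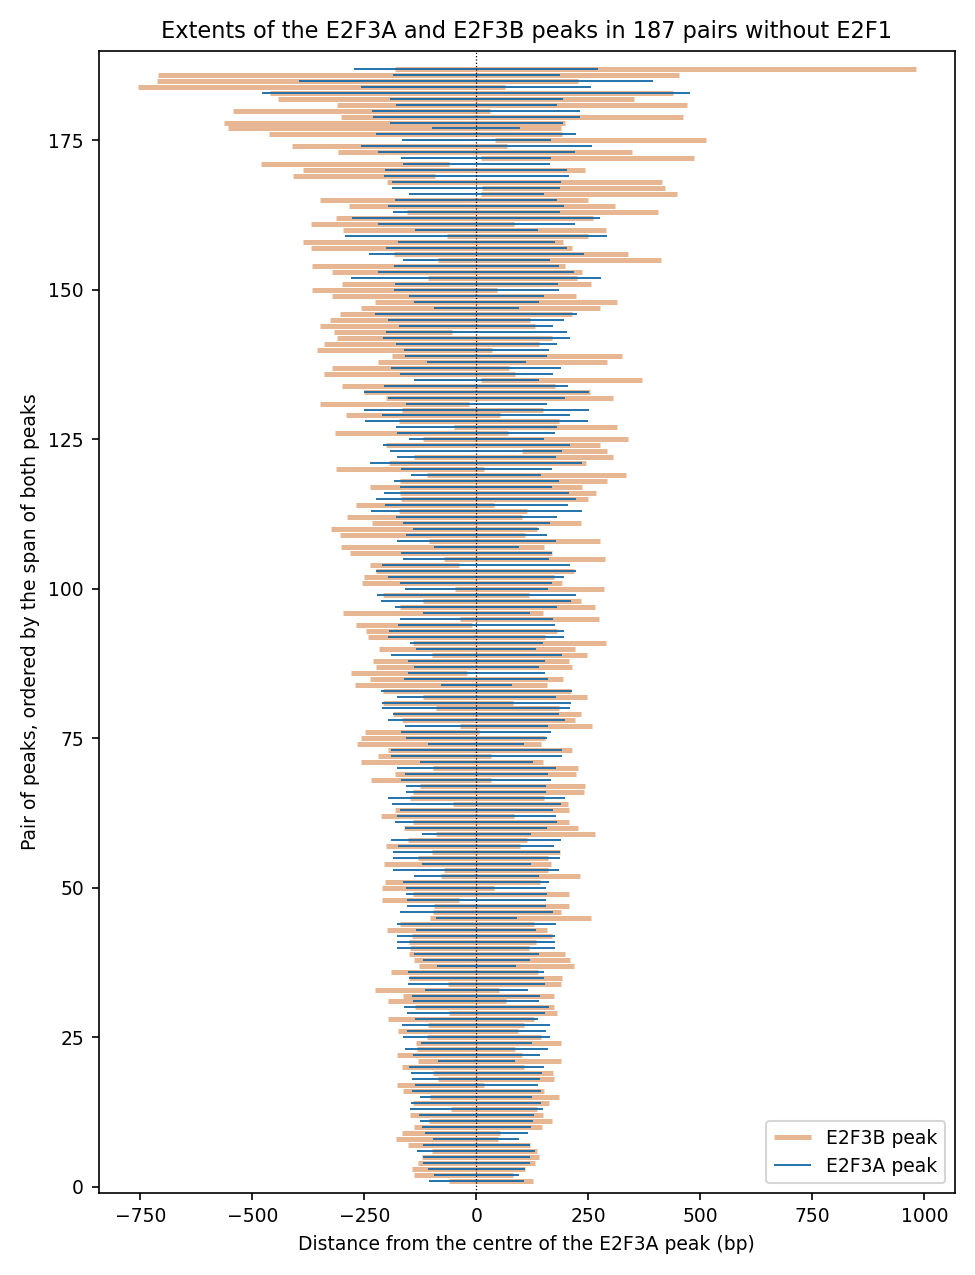
Each row is 1 of 187 overlapping pairs of an E2F3A peak (thin blue line) and an E2F3B peak (broad orange line) without E2F1, drawn by distance in bp from the centre of the E2F3A peak and ordered by the span of both. The centres lie a median of 52 bp apart, within 100 bp in 141 pairs and 400 bp apart at most. In the rows of largest span it is mostly the E2F3B peak that reaches beyond the E2F3A peak.

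The 2 lists, of 1 library each, differed in how the peaks of a pair sat in each other. Over the whole lists E2F3B peaks were also the wider ones, with a median of 356 bp against 341 bp for E2F3A. The E2F3B peak was the wider one in 121 of the 187 pairs (64.7%, interval 57.6 to 71.2), and the ratio of E2F3B to E2F3A width had a median of 1.12. Where E2F1 was also called, the E2F3B peak was the wider one in 482 of 649 pairs (74.3%, 70.8 to 77.5), with a median ratio of 1.26. The E2F3A peak lay wholly inside the E2F3B peak in 59 pairs without E2F1 (31.6%, 25.3 to 38.5) and in 302 pairs with it (46.5%, 42.7 to 50.4). The reverse nesting was seen in 23 pairs (12.3%) and 69 pairs (10.6%). Staggered peaks, with each reaching past the other on 1 side, made up 105 of the pairs without E2F1 (56.1%, 49.0 to 63.1) and 278 of those with it (42.8%, 39.1 to 46.7). Across pairs, the widths of both isoforms' peaks were loosely related, with a Spearman rho of 0.34 over the 187 pairs and 0.34 over the 649, as a description of peaks that share their position and caller.

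The overlap rule left few borderline cases between the E2F3 lists. The smallest overlap of a pair was 90 bp, on chromosome 13, between E2F3A at 13682437 to 13682820 and E2F3B at 13682731 to 13682919, in mm9 coordinates as throughout. The next smallest were 104 bp on chromosome 5 and 115 bp on chromosome 4. Just outside the rule, an E2F3A peak on chromosome 5 (100947108 to 100947484) missed an E2F3B peak (100947545 to 100947801) by 60 bp, and another on chromosome 17 missed one by 68 bp. On the side of E2F1, the E2F3A peak that was kept out of the set by the smallest overlap lay on chromosome 6 (71582911 to 71583164) and shared 35 bp with E2F1. For E2F3B this was a peak on chromosome 5 (129525987 to 129526426) that shared 43 bp.

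In 4 cases a peak counted as lacking E2F1 although its partner touched an E2F1 peak. On chromosome 2 the E2F3A peak at 131088409 to 131088828 (420 bp) lay 34 bp from an E2F1 peak at 131087881 to 131088374, while the E2F3B peak over it (131087989 to 131088830, 842 bp) overlapped that E2F1 peak. On chromosome 16 the E2F3A peak at 20622437 to 20622741 (305 bp) lay 39 bp from an E2F1 peak at 20621637 to 20622397 and bridged 2 E2F3B peaks. One of these (20621806 to 20622486, 681 bp) was on E2F1, and the other (20622526 to 20622778, 253 bp) was not. The other 2 cases were E2F3B peaks under a wider or shifted E2F3A peak. On chromosome 8 the E2F3B peak at 83404179 to 83404557 (379 bp) was 50 bp from an E2F1 peak of 978 bp and lay wholly inside an E2F3A peak of 787 bp that overlapped it. On chromosome 17 the E2F3B peak at 36002565 to 36003140 (576 bp) was 78 bp from an E2F1 peak of 721 bp, and an E2F3A peak of 516 bp spanned the gap. At these 4 sites all 3 proteins had peaks side by side within 1 merged stretch, so the position of the peak borders decided that they were counted.

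E2F3 peaks without E2F1 were of ordinary width for their lists and narrower than peaks called for all 3 proteins. The E2F3A peaks had a median of 340.5 bp (interval 326 to 356) and a range of 159 to 956 bp. The 644 E2F3A peaks called for all 3 proteins had a median of 373.5 bp (364 to 384), and the 1100 found in no other list 331.5 bp (327 to 336). E2F3A peaks shared with E2F1 and not with E2F3B, 66 in number, had a median of 343 bp (320 to 364), near that of the peaks without E2F1. The contrast with peaks called for all 3 proteins was larger in the E2F3B list. There the peaks without E2F1 had a median of 370 bp (348 to 406) and a range of 171 to 1162 bp. The 645 E2F3B peaks called for all 3 proteins had a median of 484 bp (465 to 495), 114 bp more, and the 2784 found in no other list 337 bp (334 to 340). E2F3B peaks shared with E2F1 and not with E2F3A, 1087 in number, lay between with 396 bp (383 to 405), and their interval overlapped that of the E2F3 peaks without E2F1.

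**Figure D2:**
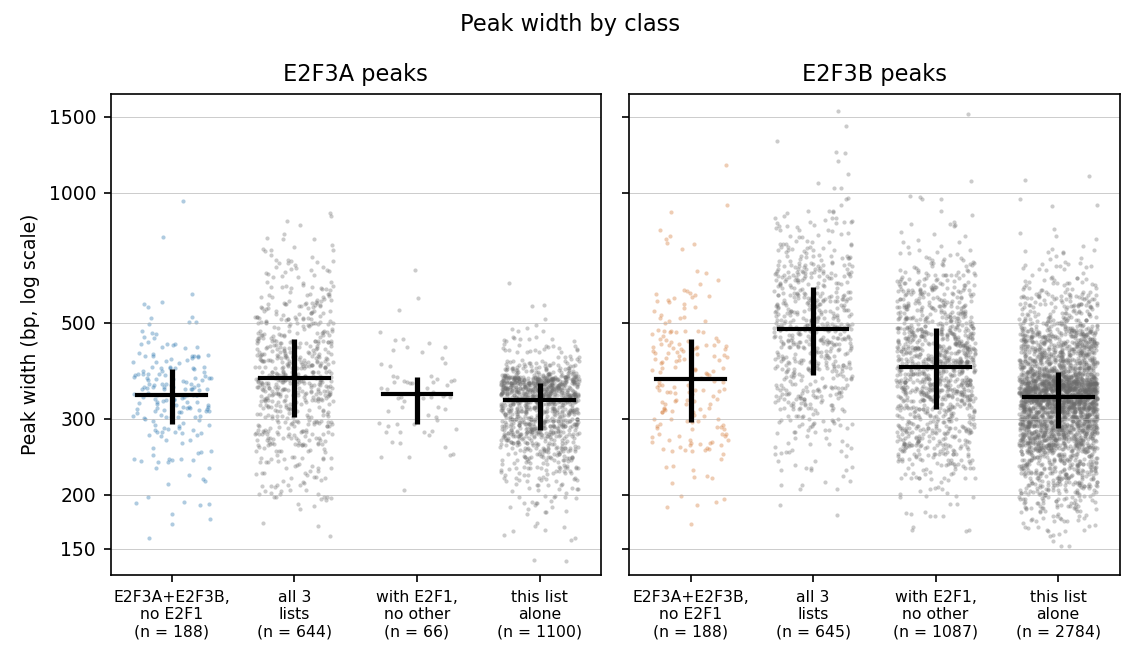
Width of each peak in bp on a log axis, with 1 point per peak, for E2F3A peaks on the left and E2F3B peaks on the right. Horizontal bars are medians and vertical bars span the quartiles, and the E2F3 peaks without E2F1 (coloured) have medians of 340.5 and 370 bp, below the 373.5 and 484 bp of peaks called for all 3 proteins.

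The upper end of the widths showed the same order. Above the upper quartile of the E2F3A list, 378 bp, lay 56 of the 188 E2F3A peaks without E2F1 (29.8%, interval 23.7 to 36.7), against 24.9% of all E2F3A peaks. Above the upper quartile of the E2F3B list, 447 bp, lay 51 of the 188 E2F3B peaks (27.1%, 21.3 to 33.9), against 24.8% of all E2F3B peaks. Both shares were near those of the whole lists. Peaks called for all 3 proteins passed the same limits in 47.7% (43.8 to 51.5) and 59.1% (55.2 to 62.8) of cases, and peaks found in 1 list alone in 10.8% and 13.0%.

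Read the other way, the widest shared E2F3 peaks lacked E2F1 less often than the narrowest. Of the 833 E2F3B peaks shared with E2F3A, 22.6% had no E2F1 overlap (interval 19.9 to 25.5). This share was 47.7% (38.7 to 57.0) among those under 300 bp, 28.5% (22.5 to 35.4) from 300 to under 400 bp, 22.6% (17.5 to 28.7) from 400 to under 500 bp and 10.5% (7.61 to 14.3) at 500 bp or more. The 832 E2F3A peaks shared with E2F3B gave a less even order, with 24.3% (18.9 to 30.6) under 300 bp, 30.5% (25.7 to 35.8) from 300 to under 400 bp, 17.5% (12.6 to 23.9) from 400 to under 500 bp and 7.46% (4.10 to 13.2) at 500 bp or more. The narrowest E2F3A peaks did not have the highest share, and the intervals of their first 2 width classes overlapped.

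**Figure D3:**
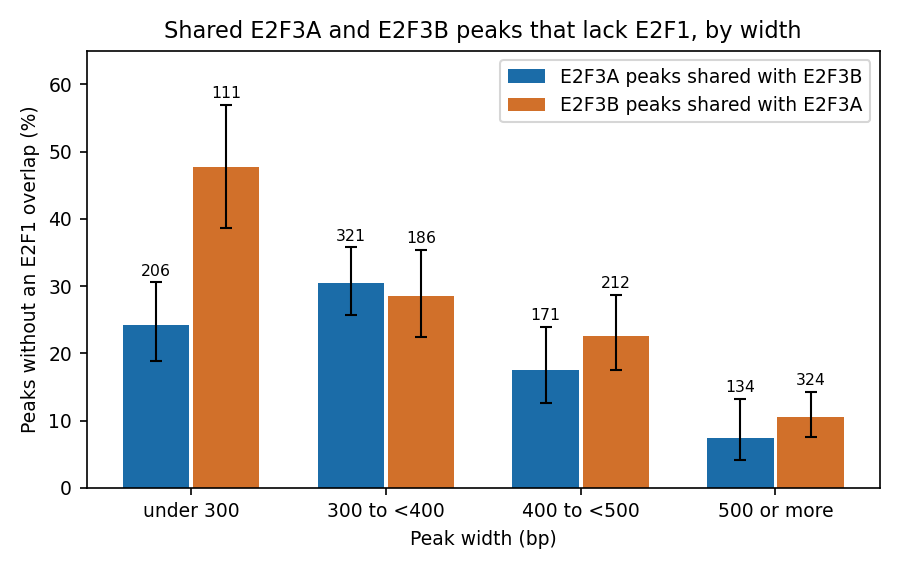
Share of shared E2F3 peaks that overlap no E2F1 peak, in percent, by peak width in bp, with blue bars for E2F3A and orange bars for E2F3B. Whiskers are 95% Wilson intervals and the number above each is the count of shared peaks, and the E2F3B share goes from 47.7% under 300 bp to 10.5% at 500 bp or more.

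A wide peak meets a 1 bp overlap more easily than a narrow one, and the part of this in the pattern was not tested. When E2F1 was instead looked for within 250 bp of the peak's centre, whatever its width, the E2F3B shares were 47.7% under 300 bp and 10.5% at 500 bp or more, and the E2F3A shares 23.8% and 7.46%. That setting gave shares close to those by overlap and adds little to them. The E2F3B share was the same in 3 of the 4 width classes. For E2F3A it was 30.2% against 30.5% by overlap from 300 to under 400 bp, and 17.0% against 17.5% from 400 to under 500 bp. Changes in single calls were not counted. The share was also taken over pairs, by the widths of both peaks, and the part of each width in it was not tested. Of the 238 pairs in which both peaks were under 400 bp, 91 (38.2%, interval 32.3 to 44.5) lacked E2F1, and of the 249 in which both were 400 bp or more, 25 did (10.0%, 6.89 to 14.4). Pairs with a wide E2F3B peak and a narrow E2F3A peak lay between, at 19.4% (15.3 to 24.3) of 294, as did the opposite kind, at 23.7% (14.7 to 35.97) of 59.

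Some regions without E2F1 were wide, and the 10 widest measured 743 bp or more. A region joins overlapping peaks, so it can be wide and still hold a narrow E2F3A peak. The widest, on chromosome 15 from 103069488 to 103070740 (1253 bp), held 2 E2F3A peaks of 544 and 373 bp under an E2F3B peak of 1162 bp, the widest E2F3B peak of the set. The nearest E2F1 peak lay 15.6 kb away, but the region was in an 81.3 kb stretch between E2F1 peaks where a peak number was skipped. The same held for the region on chromosome 17 from 35978013 to 35978968, whose peaks of 956 bp (E2F3A) and 901 bp (E2F3B) had centres 10.5 bp apart. It lay 2.55 kb from an E2F1 peak, in a stretch of 22.3 kb with a skipped number. For these 2 regions the absence of E2F1 rests on a stretch of the list with a skipped number.

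No number was skipped around the other 8 of the 10 widest regions. On chromosome 8, the region from 81818310 to 81819417 (1108 bp) held an E2F3A peak of 790 bp and an E2F3B peak of 939 bp that overlapped by 621 bp, and the nearest E2F1 peak was 343 kb away. A second region on chromosome 8, from 72240266 to 72241278 (1013 bp), was wide because its peaks were staggered: E2F3A of 514 bp and E2F3B of 820 bp had centres 346 bp apart and shared 321 bp. The region on chromosome 1 from 57029493 to 57030266 (774 bp) was staggered too, with peaks of 464 and 572 bp whose centres were 256 bp apart.

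In the other 5 of these regions a broad E2F3B peak enclosed a narrower E2F3A peak. On chromosome 9 from 53344603 to 53345395, an E2F3B peak of 793 bp enclosed an E2F3A peak of 386 bp. On chromosome 4 from 133522965 to 133523746 the widths were 782 and 358 bp, and on chromosome 17 from 3084012 to 3084775 they were 764 and 462 bp. Chromosome 10 had the last 2 of these, from 80363209 to 80363970 with 762 and 386 bp and from 122423044 to 122423786 with 743 and 197 bp. In the last region the E2F3B peak was thus the wider one by the largest margin relative to the E2F3A peak among the 10, and an E2F1 peak lay 10.2 kb away. Nearest E2F1 peaks of the other 4 lay 16.6 to 297 kb away.

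The rule bars an overlapping E2F1 peak and says nothing about E2F1 in the neighbourhood, which was therefore compared as the gap to the nearest E2F1 peak that the peak did not overlap. E2F3A peaks without E2F1 had E2F1 within 10 kb in 24 of 188 cases (12.8%, interval 8.73 to 18.3), against 6.68% of all 1288 E2F3A peaks outside the E2F1 list. Those in no other list had E2F1 that near in 62 of 1100 cases (5.64%, 4.42 to 7.16), and those called for all 3 proteins had a further E2F1 peak that near in 71 of 644 (11.0%, 8.83 to 13.7). Within 100 kb the shares were 44.7% (37.8 to 51.8) for the peaks without E2F1, against 34.5% of all E2F3A peaks outside the E2F1 list, 32.7% (30.0 to 35.6) for those in no other list and 52.2% (48.3 to 56.0) for those of all 3 proteins. By this measure the E2F3A peaks that E2F3B shared lay closer to E2F1 peaks than those found in the E2F3A list alone. The median gaps were 116 kb, 206 kb and 89.4 kb in the same order of classes (without E2F1, E2F3A alone, all 3 proteins). Leaving out peaks with E2F1 within 500 bp lowered the share within 10 kb, by construction, to 9.89% (6.35 to 15.1). With overlapping peaks merged, regions of any list were nearer too. One lay within 10 kb of 23.8% of regions of E2F3A and E2F3B without E2F1, against 10.5% of E2F3A alone. The nearest region held E2F1 in 40.0% and 45.5% of them. Whether the closeness is particular to E2F1 was not tested.

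E2F3B peaks did not show this contrast. E2F1 lay within 10 kb of 25 of the 188 E2F3B peaks without E2F1 (13.3%, interval 9.17 to 18.9), against 10.3% of all 2972 E2F3B peaks outside the E2F1 list, and within 100 kb of 84 (44.7%, 37.8 to 51.8), against 43.9%. Those in the E2F3B list alone gave 10.1% (9.06 to 11.3) and 43.9% (42.1 to 45.7). Since the peaks of both isoforms mark the same 189 regions here, what changed between the lists was the class they were set against. E2F3A peaks in no other list lay farther from E2F1 (median 206 kb) than E2F3B peaks in no other list (median 126 kb).

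**Figure D4:**
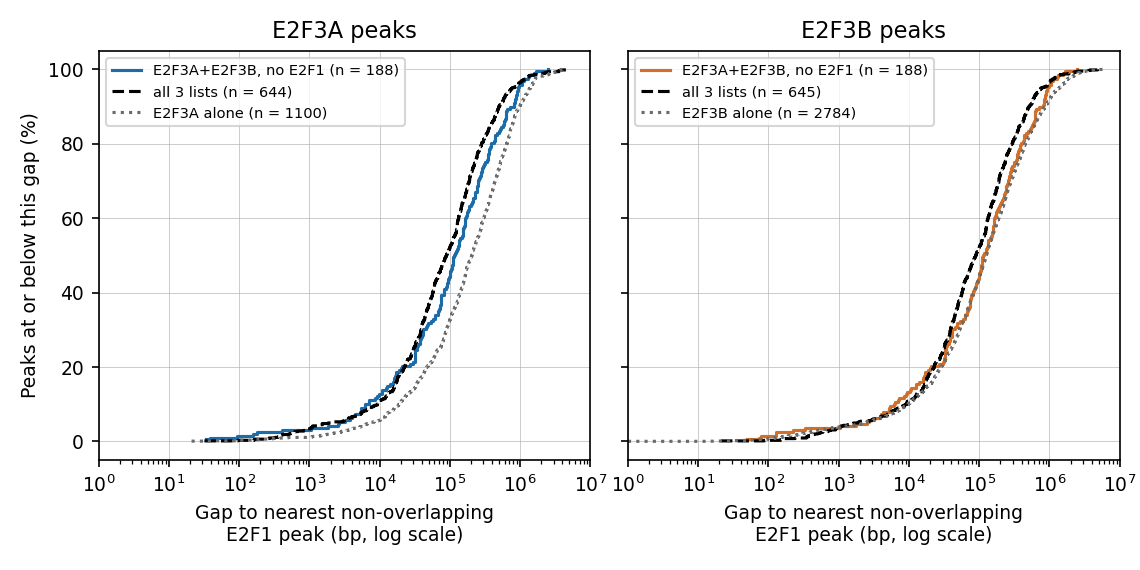
Cumulative share of peaks, in percent, by the gap in bp (log axis) to the nearest E2F1 peak that does not overlap the peak itself, for E2F3A on the left and E2F3B on the right. The solid line of E2F3 peaks without E2F1 reaches 44.7% at 100 kb in both panels, above the 32.7% of E2F3A peaks in no other list and close to the 43.9% of E2F3B peaks in no other list.

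An E2F1 peak lay within 500 bp of 6 E2F3A peaks (3.19%, interval 1.47 to 6.79), against 1.32% of all E2F3A peaks outside the E2F1 list, and of 7 E2F3B peaks (3.72%, 1.82 to 7.48), against 2.99% of all E2F3B peaks outside it. Both intervals are wide, that of E2F3A begins just above the share of its list, and no more peaks were added up to 1000 bp. The 5 regions nearest to E2F1 include the 4 sites above with a partner on E2F1. The fifth, on chromosome 12 from 25393388 to 25393760, had peaks of 242 bp (E2F3A) and 373 bp (E2F3B), and an E2F1 peak of 493 bp lay 74 bp away.

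At the other extreme, the farthest region lay 2.48 Mb from any E2F1 peak, on chromosome 18 from 13100233 to 13100484, with an E2F3A peak of 217 bp inside an E2F3B peak of 252 bp. On chromosome 4, the region from 71861707 to 71862323 was 1.67 Mb from E2F1 and had staggered peaks of 414 and 318 bp that shared 115 bp. A tighter pair on the same chromosome, from 34725406 to 34725816 with peaks of 381 and 411 bp and centres 8 bp apart, was 1.33 Mb away. On chromosome 6, the region from 40421216 to 40421735 (peaks of 404 and 263 bp) was 1.57 Mb away. The region on chromosome 10 from 20672162 to 20672608, with peaks of 447 and 441 bp and centres 3 bp apart, was listed as 1.30 Mb away, but a peak number was skipped in the stretch of 2.68 Mb around it. Regions far from E2F1 thus included closely matched pairs as well as staggered ones.

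Neighbours of any kind were compared after all peaks of the 3 lists had been merged into 7852 regions, of which 185 held E2F3A and E2F3B and no E2F1. Another region lay within 10 kb of 44 of these 185 (23.8%, interval 18.2 to 30.4), against 17.6% of all 7852 regions. The share was 22.0% (18.9 to 25.3) for the 642 regions of all 3 proteins, 19.7% (18.3 to 21.2) for E2F3B alone and 10.5% (8.87 to 12.5) for E2F3A alone. The nearest neighbour of the 185 was most often a region of E2F3B alone, in 78 cases (42.2%), followed by E2F1 alone in 43 (23.2%) and E2F3A alone in 29 (15.7%). Over all 7852 regions the same neighbours made up 37.1%, 25.5% and 13.2%, so the order was that of the whole set. The nearest neighbour of the 185 held an E2F1 peak in 74 cases (40.0%, 33.2 to 47.2), against 47.5% over all regions. Another region of E2F3A and E2F3B without E2F1 was the nearest in 4 cases (2.16%), against 2.28% over all regions.

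The nearest other E2F3 region without E2F1 was a median of 3.18 Mb away, and 14 of the 189 (7.41%, interval 4.46 to 12.05) had another within 100 kb. Spacing depends on how many regions are counted, and no set of equal number was compared. The share within 100 kb was 3.70% with 50% reciprocal overlap, 4.23% with centres within 100 bp, 4.42% with no E2F1 peak within 500 bp and 3.28% among the 50% widest peaks. It was 5.41% when no peak joined to the members, directly or through another peak, was an E2F1 peak. Without stretches where an E2F1 number was skipped it was 6.59%. The 14 regions formed 7 couples, of which 3 were less than 10 kb apart. The closest couple, on chromosome 2, had 2.83 kb between regions ending at 154386737 and starting at 154389564. On chromosome 13, regions ending at 22127634 and starting at 22134705 were 7.07 kb apart, and on chromosome 5, regions ending at 38945393 and starting at 38952752 were 7.36 kb apart. Of the wider couples, 1 on chromosome 17 joined the region of 956 bp at 35978013 to the E2F3B peak at 36002565, 23.6 kb on, so that both of its regions carry the reservations given above. Another, on chromosome 2, joined the region at 131005858 to the E2F3A peak at 131088409, whose partner touched an E2F1 peak.

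Every chromosome with peaks held E2F3 peaks without E2F1, in proportions that varied with small numbers. Chromosome 2 had the most E2F3A peaks of this kind, 18, followed by chromosomes 4 and 8 with 17 each and chromosome 9 with 16. It also had the most E2F3A peaks of any kind, 183. Among E2F3A peaks shared with E2F3B, 26.5% (17.4 to 38.0) lacked E2F1 on chromosome 2. On chromosomes 4 and 8 it was 27.0% (17.6 to 39.0) and 28.3% (18.5 to 40.8), and all 3 intervals hold the genome-wide 22.6%. Relative to all E2F3A peaks shared with E2F3B, of which 22.6% lacked E2F1, the share was 38.7% (12 of 31, interval 23.7 to 56.2) on chromosome 3, 33.3% (11 of 33, 19.8 to 50.4) on chromosome 6 and 31.4% (16 of 51, 20.3 to 45.0) on chromosome 9. Lower shares were found on chromosome 15, with 11.7% (7 of 60, 5.77 to 22.2), and on chromosome 14, with 11.1% (4 of 36, 4.41 to 25.3). Chromosome 17 had the most shared E2F3A peaks, 70, of which 12 (17.1%, 10.1 to 27.6) lacked E2F1.

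Chromosome 18 stood apart with few peaks. It held 5 E2F3A peaks shared with E2F3B, and 4 of them lacked E2F1 (80.0%, interval 37.6 to 96.4), whereas on chromosome 19 this was 1 of 12 (8.33%, 1.49 to 35.4). The X chromosome had 3 of 12. The interval of the genome-wide share, 19.9 to 25.6, lay outside the interval of chromosome 18 and inside or across those of all the other chromosomes, and 20 chromosomes were compared. The share itself, 22.6%, also lay outside the intervals of chromosome 3 (23.7 to 56.2) and chromosome 15 (5.77 to 22.2). Chromosome 18 also had the fewest peaks of each of the 3 lists among the 20 chromosomes, with 50 for E2F1, 20 for E2F3A and 63 for E2F3B, and their part in this share was not tested.

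**Figure D5:**
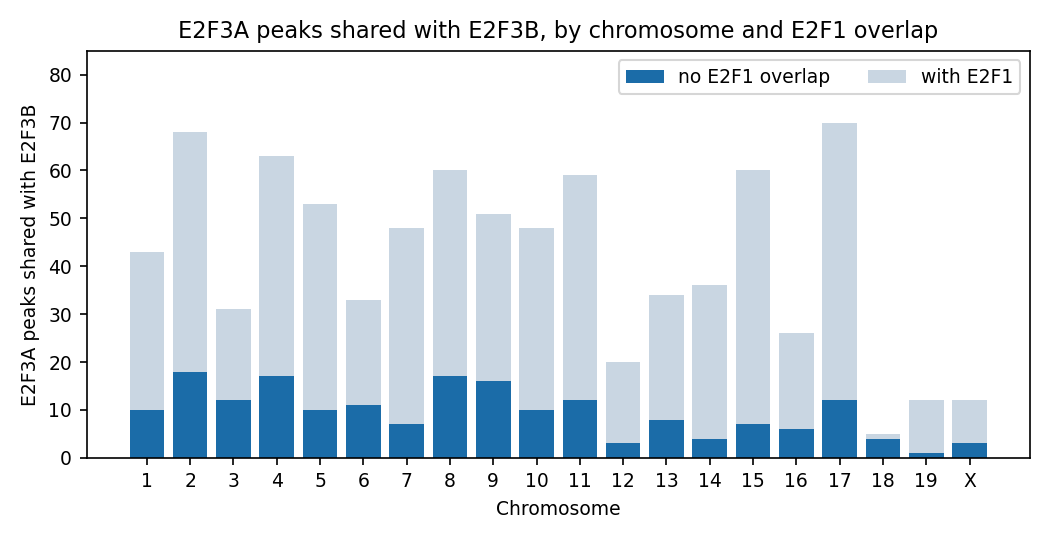
Number of E2F3A peaks shared with E2F3B on each chromosome, divided into those without an E2F1 overlap (dark) and those with one (pale). The dark part is 22.6% of all, with 4 of 5 peaks on chromosome 18 and 1 of 12 on chromosome 19 as the extremes.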

How the data were processed

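ChIP-seq peak lists of 3 libraries were used, 1 for each overexpressed protein named in the labels. Bowtie2, SAMtools and mm9 are named in the submitters' processing notes with no versions, and MACS in the peak names of the deposited files. Version, threshold and control of that caller were not given in the sources used here. Each list gives a chromosome, start, end and name per peak. Starts were read as counting from 0, and 1 was added for printing.

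Overlaps, gaps, Wilson intervals and order-statistic intervals were computed with Python 3.11.15, numpy 2.4.6, scipy 1.17.1 and pandas 2.3.3. The selection matched bedtools 2.31.1 (188 peaks in each list) and, on simulated data, returned the 120 planted E2F3 pairs in each of 5 sets. The simulated sites were spaced far apart and had no E2F1 peak close beside a pair. They therefore checked the code and not borderline cases. Named regions were the 10 widest, the 5 nearest to and 5 farthest from E2F1, and peaks with a partner on E2F1. Smallest overlaps and close couples were named after their values were seen. The members and measures were chosen with earlier results of these data known.

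No genome of mm9 was used. Genes, promoters, motifs and sequences of the regions, which had been planned, were not analysed here, because the gene and promoter tables at hand are of another build.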

Additional observations from a re-analysis of the deposited data

How the results depend on the processing

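Of 58 values recomputed under 7 alternatives for 15 results, 49 stayed within the interval of the reported value or, for the number of peaks, within 1.5 times it. No result was recomputed under all 7, and the shares by width class only under alternatives chosen after seeing the data. Several alternatives removed few peaks and left the values little room to move, so the count is no measure of robustness. Keeping only the 50% widest E2F3A and E2F3B peaks reduced the set from 376 to 120 peaks and by its construction raised the median widths to 392.5 bp (E2F3A) and 479 bp (E2F3B). The median centre offset was 72 bp in that setting and 40 bp with centres within 100 bp, a limit that bars larger offsets. The share of regions within 100 kb of another, 7.41%, was 3.70% with 50% reciprocal overlap, 4.23% with centres within 100 bp, 4.42% with no E2F1 peak within 500 bp and 3.28% among the 50% widest. It was 5.41% when no joined peak was an E2F1 peak and 6.59% without stretches with a skipped E2F1 number. The reported 7.41% rests on 14 regions. The set held 323 peaks with reciprocal overlap, 283 with centres within 100 bp, 363 with no E2F1 within 500 bp and 371 when no peak joined to them, directly or through another peak, was an E2F1 peak. Leaving out peaks in stretches with a skipped E2F1 number, an alternative chosen after seeing the data like that of E2F1 near the peak's centre, left 361. No paired analysis was possible because there was only 1 library per protein. Unknown depth and the absence of scores limit what a position outside the E2F1 list shows.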
